A study of Mus musculus with 7 samples.

Results

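The genes described here are 6 homeobox transcription factor genes of the primitive streak, namely Mixl1, Lhx1, Gsc, Evx1, Cdx1 and Cdx2. Each was taken from the gene tables by its NCBI gene number (27217, 16869, 14836, 14028, 12590 and 12591), so the set is 6 of 24990 features. The genes were chosen by name, with earlier results of these data already known. The tables come from 3′ RNA-seq of mouse embryoid bodies, the suspension aggregates in which embryonic stem cells differentiate, collected on day 4 after seeding without Lif. All 7 libraries come from R1, a mouse embryonic stem cell line, depleted of feeder fibroblasts before seeding. By title, 2 are wild type (WT1, WT2), 2 lack the promoter of the long non-coding RNA gene Meteor (pKO1, pKO2), 1 carries that promoter inverted (pInv), 1 received an empty vector (Ctrl) and 1 a CRISPR knockdown of Meteor (KD). The labels name no clone, guide or vector, so a genotype cannot be told apart from the line that carries it.

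The labels conflict, and groups here follow the titles. The genotype field of the labels gives the promoter knockout for WT1 and WT2, the inversion for pKO1, and wild type for pKO2 and pInv. For KD it names dCas9, where the series' design text names Cas9. The expected counts of a library summed to between 1898350 (WT2) and 2564478 (WT1), and the 45S ribosomal RNA precursor took 12.9% of them in pInv and 24.1% in WT2. KD also stood apart, with 357 CPM summed over 12 macrophage markers against 1.52 to 4.24 CPM in the other 6 libraries. No feature was matched to Meteor by name, so the targeted RNA was not analysed here and does not check the titles. The labels do not say whether replicate libraries came from separate cultures, so tests measure only the spread between libraries, which may be technical.

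The primitive streak is the groove of the gastrulating embryo through which epiblast cells leave to form mesoderm and definitive endoderm. Homeobox genes encode transcription factors that bind DNA through a homeodomain, and several mark the streak and its parts. Mixl1 and Gsc belong to the paired-like class, Lhx1 to the LIM class, Evx1 to the even-skipped class, and Cdx1 and Cdx2 to the caudal class. NODAL and WNT signals and the T-box factors Eomes and T act upstream of many of them, and the study's title ties Meteor to the level of Eomes.

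Promoter sequence was held for 4 of the 6 genes in the RefSeq table of GRCm38, a later build than mm9, the build named for the deposited files. The 250 bases upstream of the start are shown for Lhx1, Evx1 and Gsc, since these genes were counted in every library and were lowest in the same library. Capitals mark the letters TAAT, the core bound by many homeodomains, or AGGTGT, the T-box half-site, on either strand. The windows are chr11:84525535-84525784 (minus strand) for Lhx1, chr6:52313248-52313497 (plus strand) for Evx1 and chr12:104473237-104473486 (minus strand) for Gsc.
Lhx1: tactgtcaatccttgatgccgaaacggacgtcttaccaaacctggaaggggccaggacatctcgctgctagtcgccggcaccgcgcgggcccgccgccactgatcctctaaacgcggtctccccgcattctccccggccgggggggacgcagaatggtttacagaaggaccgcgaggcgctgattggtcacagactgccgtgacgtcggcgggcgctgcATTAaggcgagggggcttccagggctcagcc
Evx1: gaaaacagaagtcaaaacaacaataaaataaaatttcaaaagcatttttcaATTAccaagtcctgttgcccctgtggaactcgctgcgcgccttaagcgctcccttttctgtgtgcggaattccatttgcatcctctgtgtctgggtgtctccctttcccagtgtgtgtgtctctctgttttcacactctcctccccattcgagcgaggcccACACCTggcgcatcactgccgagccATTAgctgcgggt
Gsc: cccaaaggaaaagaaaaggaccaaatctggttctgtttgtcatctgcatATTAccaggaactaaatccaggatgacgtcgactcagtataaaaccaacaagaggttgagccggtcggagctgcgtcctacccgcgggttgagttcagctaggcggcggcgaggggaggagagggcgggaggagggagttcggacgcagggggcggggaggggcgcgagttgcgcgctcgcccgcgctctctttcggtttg
The homeodomain tetramer stood once in Lhx1, from −31 to −28 relative to the start, and once in Gsc, from −201 to −198. Evx1 held it at −199 to −196 and at −13 to −10, and held the T-box half-site at −38 to −33. Of 32817 promoter windows of the same length, 54.9% held TAAT and 11.8% held AGGTGT. Longer motifs were searched on both strands too, and none was found in these windows. They were the T-box core GGTGTGA, which overlaps the half-site (in 3.33% of all windows), the homeodomain core TAATTA (4.85%) and the bicoid-type core TAATCC (6.25%). The palindromic paired-homeodomain site (0.46%), like both of these cores, contains TAAT. The TCF and LEF core CTTTGAT (3.21%) and the FOXH1 core AATNCACA (3.18%) were the others. The letters were chosen with expression values known, and the shorter TAAT and AGGTGT after the longer ones gave no match. A match is a description only.

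Mixl1, which encodes a paired-like factor of nascent mesendoderm, was present in every library but at very unequal levels. Levels are in CPM, expected counts scaled by library total and a TMM factor. Mixl1 stood at 99.0 and 7.20 CPM in WT1 and WT2, at 92.7 and 52.1 in pKO1 and pKO2, at 83.2 in pInv, and at 81.2 and 127 in Ctrl and KD. KD was highest and WT2 lowest, and the WT pair enclosed pKO and pInv. WT2 held 12 counts of Mixl1, while each of the others held between 127 and 275. The exact Poisson 95% interval of WT2, 3.72 to 12.6 CPM, lay below that of pKO2, 43.4 to 62.0 CPM, and both lay below those of the other 5. WT1, pKO1, pInv and Ctrl followed each other with overlapping intervals. Such intervals cover counting error only. In bulk RNA, fewer cells of a type and less RNA per cell cannot be told apart.

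Lhx1, a LIM homeobox gene of the anterior streak and the head organizer, varied over the widest range. Its level was 531.5 and 58.2 CPM in WT1 and WT2, 521 and 884 in pKO1 and pKO2, 258 in pInv, and 492 and 1138 in Ctrl and KD. KD and pKO2 stood above the rest, with intervals of 1093 to 1184 and 847 to 922 CPM. WT1, pKO1 and Ctrl had overlapping intervals, while pInv and WT2 each lay apart below them. Unlike Mixl1, which was lower in pKO2 than in pKO1, Lhx1 was higher in pKO2.

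Gsc, goosecoid, encodes a paired-like repressor of the organizer region. Levels were 62.6 and 18.0 CPM in WT1 and WT2, 42.0 and 66.9 in pKO1 and pKO2, 30.1 in pInv, and 50.8 and 44.8 in Ctrl and KD. Every library's interval overlapped that of its neighbour in this order, from pKO2 at the top to WT2 at the bottom. KD came after pKO2, WT1 and Ctrl for Gsc, while it was highest for the other 3 detected genes.

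Evx1, an even-skipped type gene of the posterior streak, was the steadiest outside WT2 and KD. The WT libraries had 145 and 36.0 CPM, pKO1 and pKO2 had 120 and 143, pInv 134, and Ctrl and KD 122 and 220. The 5 libraries from pKO1 to WT1 had overlapping intervals with their neighbours. KD, at 201 to 241 CPM, lay above them and WT2, at 27.5 to 46.4 CPM, below. The expected counts of Evx1 were not whole, so the authors' estimate assigned part of a read to it, and values were rounded.

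**Figure D1:**
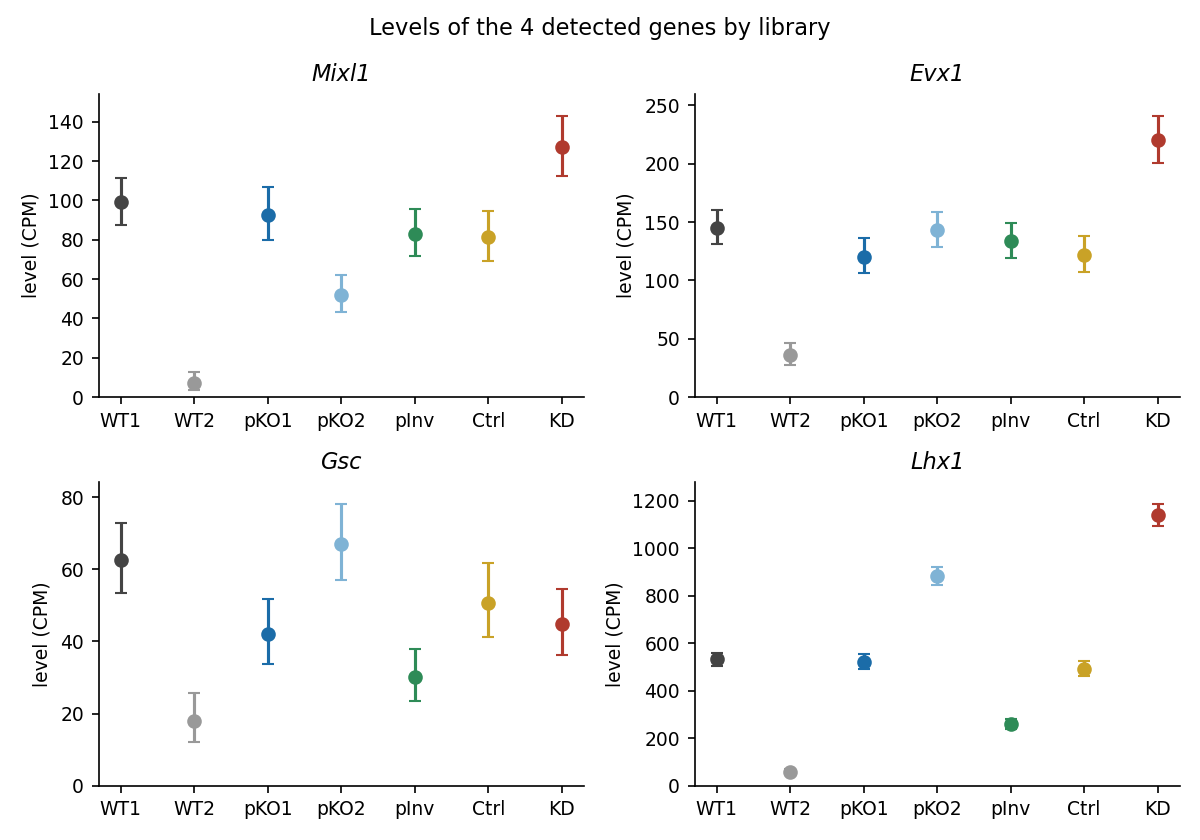
Each panel plots the level of a gene in CPM (vertical axis, from 0) in each of the 7 libraries (horizontal axis), and bars are exact Poisson 95% intervals that cover counting error only. WT2 is lowest in all 4 panels, at 7.20 CPM for Mixl1, 36.0 for Evx1, 18.0 for Gsc and 58.2 for Lhx1, and KD is highest in all but Gsc.

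The caudal genes were at the limit of counting. Cdx1, a regulator of posterior identity, had 1 count in WT1 and in pKO1 and 0 in the other 5 libraries. Cdx2, which patterns the posterior body and also marks trophectoderm, had 4 counts in WT1, 3 in pKO2 and 5 in KD, and 0 in the other 4. In the libraries at 0, a limit of 3 counts corresponds to 1.23 CPM (pKO2) to 1.80 CPM (WT2). The highest of the 14 values was 2.31 CPM, Cdx2 in KD, with an interval of 0.750 to 5.39 CPM. No fold is given for either gene, and a difference between groups was not detectable at this depth. Neither passed the filter on low counts, so 4 of the 6 genes were tested.

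Genes that the caudal factors are known to act on were scarce as well. Of 39 Hox genes, 17 had no count in any library and 1, Hoxb1, passed the filter. Hoxb1, an early 3′ Hox gene, had 6 and 1 counts in WT1 and WT2, 2 and 8 in pKO1 and pKO2, 3 in pInv, and 4 and 19 in Ctrl and KD. Cdx4, the third caudal gene, had 1 count in WT1, pInv and KD and 0 elsewhere. The summed level of the Hox genes ran from 1.80 CPM in WT2 to 20.3 CPM in KD. As to trophoblast, 6 of its 16 markers had no count in any library, among them Elf5 and Gata2. The sum over that list ran from 73.2 CPM in WT2 to 128 CPM in KD, most of it from Krt8, Krt18 and Tfap2c. Of these, Krt8 alone was both lowest in WT2 and highest in KD, at 57.7 CPM there. Krt18 was instead highest in WT2, at 57.6 CPM against 39.7 in KD. Tfap2c was lowest in WT2 but highest in WT1, at 35.98 CPM against 20.8 in KD.

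WT2 had the lowest level of all 4 detected genes, as it did for 27.6% of the 10265 genes tested. For Mixl1, Lhx1 and Evx1 it was under 0.5 of the next lowest library, which held for 6.98% of tested genes. The WT1 to WT2 ratio was 13.7 for Mixl1 (exact 95% counting interval 7.73 to 26.9) and 9.13 for Lhx1 (7.43 to 11.3). It was 4.03 for Evx1 (3.06 to 5.38) and 3.48 for Gsc (2.35 to 5.31). WT2 also had the smallest total and the largest share of 45S precursor, and their part in these ratios was not tested. In the pKO pair the ratio of the first to the second library was 1.78 for Mixl1 (1.42 to 2.24), 0.589 for Lhx1 (0.547 to 0.634), 0.629 for Gsc (0.479 to 0.820) and 0.841 for Evx1 (0.712 to 0.991). Mixl1 was thus lower in the library numbered 2 of both pairs, and the other 3 genes only in WT.

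Setting pKO beside WT addresses the effect of deleting the Meteor promoter. None of the 4 tested genes passed, and the libraries of WT and pKO overlapped for each of them. Of tested genes, 12% had both pKO libraries above both WT libraries and 12.9% had both below. The means were 53.1 ± 64.9 CPM in WT and 72.4 ± 28.7 in pKO for Mixl1 (SD, n = 2 each). For Lhx1 they were 295 ± 335 and 702 ± 257 CPM, for Gsc 40.3 ± 31.5 and 54.5 ± 17.6, and for Evx1 90.5 ± 77.1 and 132 ± 16.1. The spread within WT was as large as its mean or nearly so. In edgeR's quasi-likelihood test the log2 difference of Mixl1 was 0.41 (SE 0.84), with an adjusted p of 1. That of Lhx1 was 1.24 (SE 0.80), that of Gsc 0.41 (SE 0.53) and that of Evx1 0.52 (SE 0.54), each with a Benjamini-Hochberg adjusted p of 1. All 4 differences were above 0, as were 49.3% of those of the 10265 genes tested. The background was 0% called, and 1.03% had an unadjusted p under 0.05, which none of the 4 genes had. DESeq2 and limma on log2(TPM + 1) also called 0 genes.

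The sign of this comparison rested on WT2 for 3 of the 4 genes. Without WT2 the log2 difference was −0.43 for Mixl1, −0.17 for Gsc and −0.12 for Evx1, and it stayed above 0 for Lhx1, at 0.42. Without pKO1 the value of Mixl1 was −0.03. Without WT1 it was 3.17 for Mixl1, 3.57 for Lhx1, 1.55 for Gsc and 1.85 for Evx1, with adjusted p of 0.15, 0.0876, 0.217 and 0.157 in edgeR's test. In each case the library left alone in its group was assumed to vary like the other pair. With groups from the genotype field, the libraries labelled knockout were lower than those labelled wild type, by a log2 difference of −0.31 for Mixl1, −0.95 for Lhx1, −0.24 for Gsc and −0.59 for Evx1. The adjusted p was 1 for all 4 in edgeR's test.

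**Figure D2:**
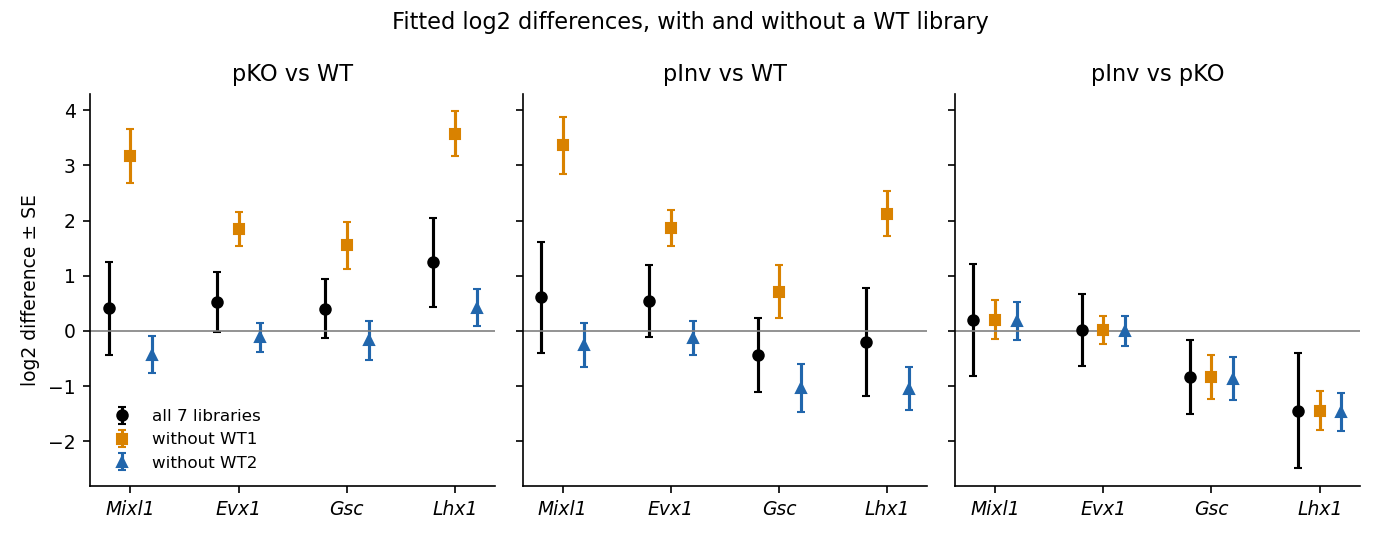
Points are fitted log2 differences with their SE (vertical axis) for the 4 tested genes (horizontal axis) in 3 comparisons, from all 7 libraries (circles), without WT1 (squares) and without WT2 (triangles). Against WT the squares lie above the triangles for every gene, for example 3.17 and −0.43 for Mixl1 in pKO, while in pInv against pKO the 3 symbols nearly coincide.

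For the inverted promoter, pInv was compared with the same WT libraries. It lay between WT1 and WT2 for all 4 genes, while it was above both for 29% and below both for 28% of tested genes. Differences above 0, found for 2 of the 4, made up 48.5% of all. The log2 difference was 0.61 for Mixl1 (SE 1.01), −0.20 for Lhx1 (SE 0.98), −0.43 for Gsc (SE 0.67) and 0.54 for Evx1 (SE 0.65). By edgeR's quasi-likelihood test, all 4 had an adjusted p of 1. The background was 0% called, and 1.48% of genes had an unadjusted p under 0.05, none of the 4 among them. Without WT1 the differences were 3.37, 2.13, 0.71 and 1.86, and without WT2 they were −0.25, −1.05, −1.04 and −0.12, in the same order of genes. The direction thus turned with the WT library for each gene. DESeq2 and limma on log2(TPM + 1) called 0 genes here too.

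Between pInv and pKO, Lhx1 and Gsc were lower in pInv than in both pKO libraries. Lhx1 was at 258 CPM against 521 and 884, and Gsc at 30.1 against 42.0 and 66.9. A level below both pKO libraries was found for 31.5% of tested genes and a level above both for 34.2%. Mixl1 (83.2 CPM against 92.7 and 52.1) and Evx1 (134 against 120 and 143) lay between the pKO libraries. The log2 difference was −1.44 for Lhx1 (SE 1.04), −0.84 for Gsc (SE 0.68), 0.20 for Mixl1 (SE 1.01) and 0.02 for Evx1 (SE 0.66), so 2 of 4 were above 0, beside 49.4% of all. The edgeR test gave all 4 an adjusted p of 1. These SEs rest on the WT pair too, since all 7 libraries share 1 estimate of the spread. Without WT1 or without WT2 the SE of Lhx1 was 0.352, and its adjusted p in edgeR's test 0.989 or 0.999. The SE of Mixl1 was then 0.354 or 0.347. None was called, against a background of 0%, and 1.49% of genes, none of these 4 among them, had an unadjusted p under 0.05. DESeq2 and limma on log2(TPM + 1) called 0 genes as well. For Lhx1 the value was −1.80 without pKO1 and −1.02 without pKO2, and for Gsc −1.15 and −0.47. Mixl1 turned to −0.16 without pKO2, and Evx1 to −0.12 without pKO1.

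The knockdown of Meteor was set beside its empty-vector control. Both are single libraries, so the difference has no replicate check and no p-value is given. Lhx1 was higher in KD, at 1138 CPM against 492, with a KD to Ctrl ratio of 2.31 (exact 95% counting interval 2.15 to 2.49). The ratio was 1.81 for Evx1 (1.54 to 2.12) and 1.56 for Mixl1 (1.28 to 1.91). Gsc was at 44.8 CPM in KD beside 50.8 in the control, a ratio of 0.882, and its interval of 0.660 to 1.18 included 1. A ratio of 2 or more was reached by Lhx1 alone of the 4, and by 4.03% of the 5083 genes at 20 CPM or more in either library. A ratio of 0.5 or less was reached by none of the 4 and by 1.26% of genes, and a ratio above 1 by 3 of the 4 and by 46.5%. KD was the highest of the 7 libraries for 3 of the 4 genes and for 20.1% of tested genes.

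Macrophage markers separated KD from Ctrl more than any of the homeobox genes did. The list was added after their values were seen. Lyz2, which encodes a lysozyme of myeloid cells, had 379 counts in KD and 1 in Ctrl. Ctss, a lysosomal protease gene, had 145 and 1. Mpeg1 had 102 counts in KD, Adgre1, the gene of the F4/80 antigen, 62, Cd14 40 and Csf1r, the macrophage growth factor receptor gene, 27, all with 0 in Ctrl. Ptprc, the pan-leukocyte gene, Fcer1g and Aif1 had 0 counts in KD. In the libraries other than KD, no gene of the list had more than 5 counts. The part of this signal in the KD to Ctrl ratios was not tested.

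Other streak genes, from a list of 25, moved unevenly in KD. Of the 17 at 20 CPM or more in either library, 4 had a ratio of 2 or more and 1 had 0.5 or less. Over all 5083 genes these shares were 4.03% and 1.26%. The median log2 ratio was 0.45 beside −0.03 over all genes. Mesp1, a factor of the earliest mesoderm, was at 243 CPM against 71.6, a ratio of 3.40. The others of the 4 were Mesp2 (ratio 6.73), Wnt5a (5.55) and Fgf3 (5.34), each at no more than 5.08 CPM in Ctrl, and Lefty1, a NODAL inhibitor, was the 1 that was lower (0.395). The T-box genes T and Eomes had ratios of 1.05 and 0.948, with intervals that included 1. Foxa2, a factor of the anterior streak and endoderm, had a ratio of 0.690 (0.598 to 0.797). Gsc and Foxa2 are both known from the anterior streak, as is Lhx1, and their ratios lay on either side of that of T. Tdgf1, the NODAL coreceptor, had a ratio of 1.45 and Nodal itself 0.523.

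**Figure D3:**
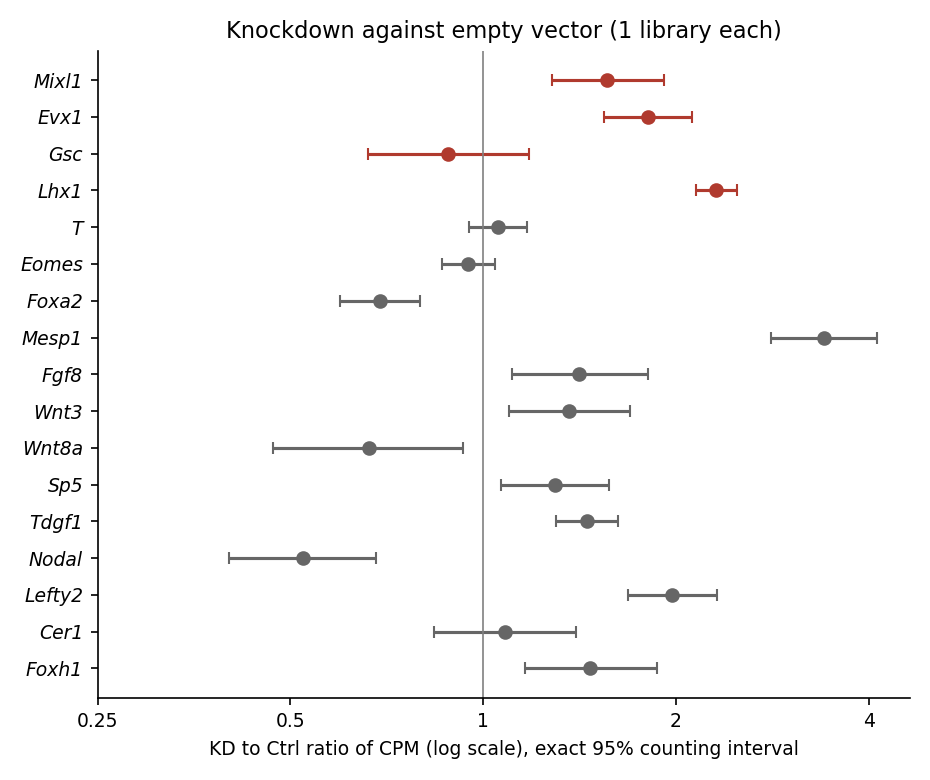
Points are KD to Ctrl ratios of CPM on a log axis with exact 95% counting intervals, for the 4 homeobox genes (red) and 13 other streak genes with means of at least 20 CPM (grey). Lhx1 lies at 2.31, Evx1 at 1.81 and Mixl1 at 1.56, Gsc at 0.882 has an interval that includes 1, and Mesp1 at 3.40 is the farthest to the right.

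Markers of other cell types were measured in the same libraries. The visceral endoderm list, whose cells also express Lhx1 and Gsc, summed to 89.4 to 120 CPM in 6 libraries and 336 in KD. Apoe, which macrophages express too, made up 253 CPM of this. Of 16 genes, 2 had no count in any library. Afp and Apoa1 had at most 2 counts and Ttr at most 4, while Amn was at 16.8 to 25.5 CPM in every library. Sox17 had a KD to Ctrl ratio of 2.73 (1.19 to 7.03), Gata6 of 2.17 (1.10 to 4.52) and Dab2 of 2.05 (1.003 to 4.435), all below 20 CPM. The pluripotency list summed to 1404 CPM in KD, its lowest value, and to 2546 in WT2, its highest. Pou5f1, the central pluripotency factor, made up most of this sum, at 2188 CPM in WT2 and 1086 in KD. Dppa4 had the same extremes, at 58.8 and 15.7 CPM. Sox2 was lowest in KD (47.6 CPM) but highest in Ctrl (118 CPM). Other genes of the list did not follow the sum. Dppa5a was lowest in WT2, at 121 CPM, and highest in pKO1, at 326 CPM. Nanog was lowest in WT2 too, with 13 counts. Tbx3 was higher in KD, with a KD to Ctrl ratio of 2.82 (1.35 to 6.45). The neural list summed to 49.9 CPM in KD and 77.4 in WT2, and Sox1 had no count in any library. Markers of feeder fibroblasts summed to 16.2 to 30.6 CPM, most of it from Loxl1, at 10.6 in KD to 21.0 in WT2. Col1a1 had 1 count in WT1, 7 in WT2 and at most 9 in any library, and Dcn, Col1a2 and Postn at most 6. The part of these levels in the homeobox results was not tested.

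Across the libraries, WT2 was also lowest for the other streak genes with means of at least 20 CPM, except Wnt3, Wnt8a, Nodal and Lefty2. T was at 54.6 CPM in WT2 against 178 to 358 elsewhere, and Tdgf1 at 70.2 against 158 to 372. Foxa2 was at 84.6 CPM against 152 to 312, and Mesp1 at 10.8 against 67.8 to 243. Eomes was at 312 CPM against 337 to 459, close to the next library. Of 19 tested genes of this list, 13 were higher and 6 lower in pKO than in WT, with a median log2 difference of 0.08 beside −0.001 over all genes, and none passed. In pInv against WT, 12 were higher and 7 lower (median 0.06, all genes −0.008). In pInv against pKO, 7 were higher and 12 lower (median −0.18, all genes 0). None of these 19 passed in edgeR's test.

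**Figure D4:**
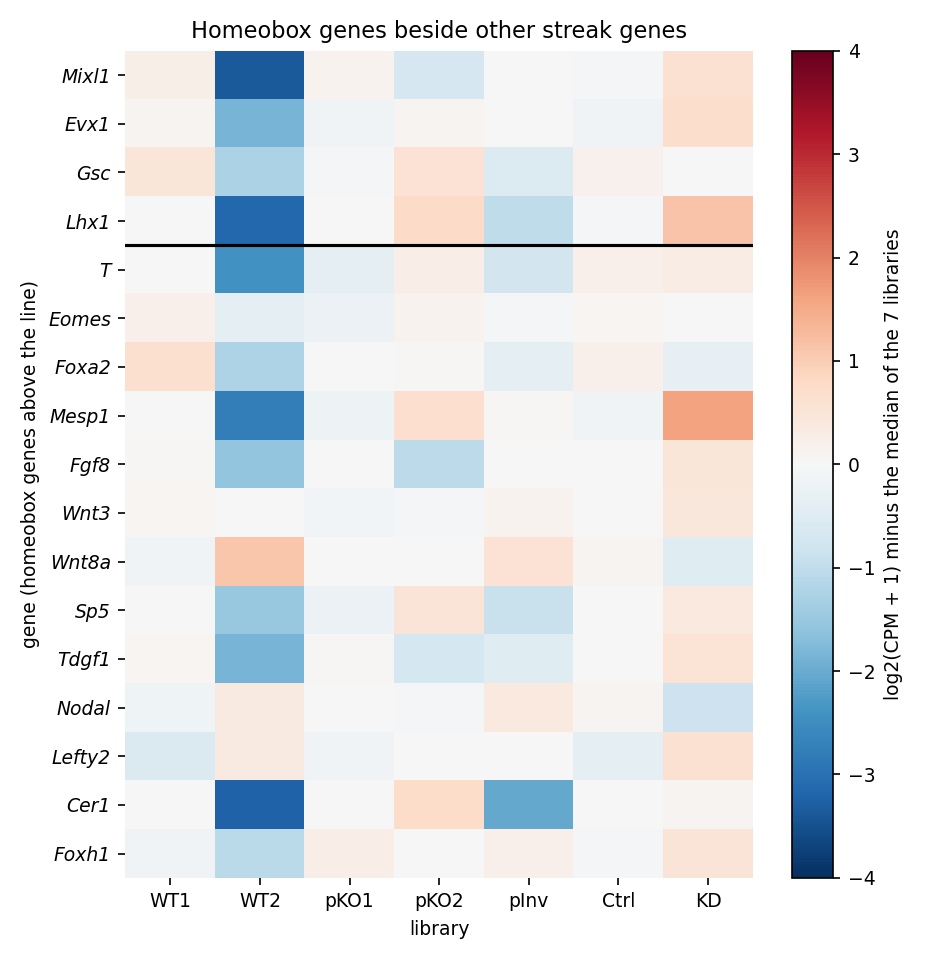
Colour gives log2(CPM + 1) minus the gene's median over the 7 libraries (columns), for the 4 homeobox genes above the line and 13 other streak genes below it. WT2 is blue for all 4 homeobox genes and for most of the others, T (54.6 CPM) among them. It is near white or red for Eomes, Wnt3, Wnt8a, Nodal and Lefty2.

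Ratios between counts of these genes within a library do not depend on library scaling. Gene length was not corrected for, so each ratio is compared across libraries only. There were 0.682 counts of Mixl1 per count of Evx1 in WT1, 0.770 in pKO1, 0.622 in pInv, 0.667 in Ctrl and 0.577 in KD, with overlapping exact 95% intervals. This ratio was 0.2 in WT2 (0.0979 to 0.376) and 0.364 in pKO2 (0.295 to 0.447), both below the rest. Counts of Lhx1 per count of Evx1 were 1.62 in WT2, 1.93 in pInv, 3.66 in WT1, 4.04 in Ctrl, 4.33 in pKO1, 5.17 in KD and 6.17 in pKO2. For pInv the interval was 1.68 to 2.22 and for WT1 3.27 to 4.11. Counts of Lhx1 per count of Gsc were 25.4 in KD (20.7 to 31.4), against 9.69 in Ctrl (7.88 to 12.0) and 3.23 to 13.2 in the other libraries. Counts of Gsc per count of Evx1 were 0.203 in KD (0.162 to 0.253) and 0.225 in pInv (0.172 to 0.292), and 0.349 to 0.5 elsewhere. The interval of pInv overlapped that of pKO1 (0.271 to 0.447). The 4 genes therefore did not keep a fixed proportion to each other in KD, pInv, pKO2 or WT2.

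**Figure D5:**
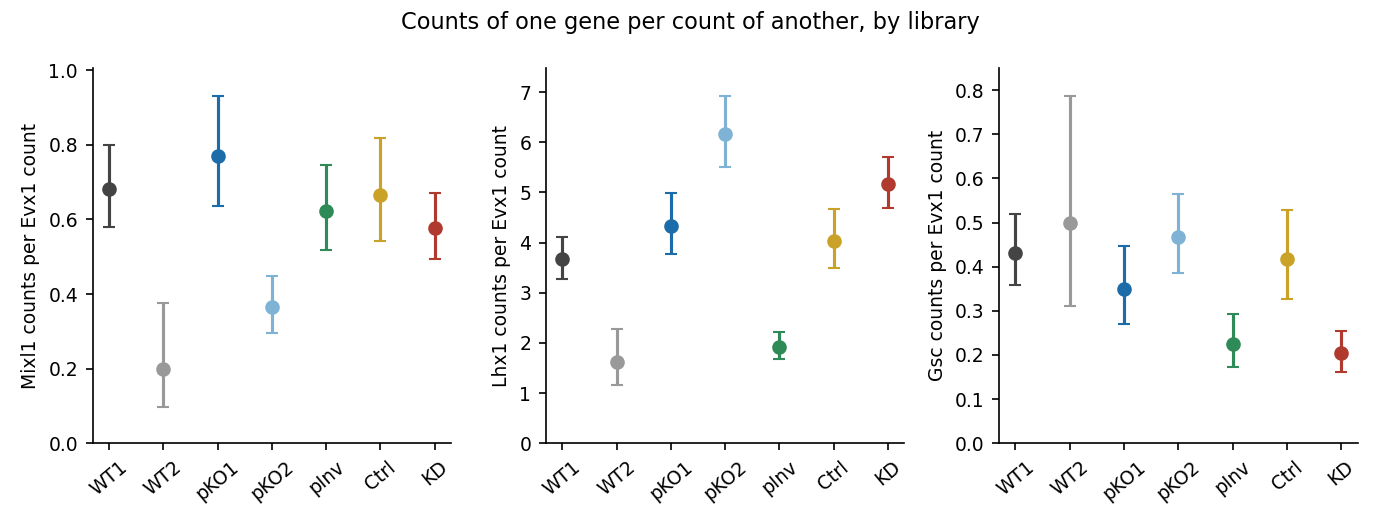
Each panel plots counts of a gene per count of Evx1 (vertical axis, from 0) in the 7 libraries (horizontal axis), with exact 95% counting intervals. Mixl1 per Evx1 is low in WT2 (0.2) and pKO2 (0.364), and Lhx1 per Evx1 in WT2 (1.62) and pInv (1.93). Gsc per Evx1 is lowest in KD (0.203) and pInv (0.225), where the pInv interval overlaps that of pKO1.

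Among 165 further homeobox genes, 158 were matched, 40 of them had no count in any library, and 38 were tested. By edgeR's test none passed in the 3 comparisons. In pKO against WT, 27 were higher and 11 lower (median 0.17, all genes −0.001), beside 49.3% higher among all tested genes. In pInv against WT, 17 were higher and 21 lower (median −0.10, all genes −0.008), beside 48.5% higher. In pInv against pKO, 13 were higher and 25 lower (median −0.11, all genes 0), beside 49.4% higher. Otx2, a factor of the epiblast and anterior head, was at 207 to 282 CPM in all 7 libraries. Pbx3, a TALE-class partner of Hox proteins, was at 126 CPM in KD and 54.0 in WT2, its extremes. Pou3f1, a POU factor of the epiblast and neural lineage, was at 131 CPM in WT2 and 38.8 in KD, the reverse of the order of Lhx1 in these libraries. In KD against Ctrl, 17 of these genes were at 20 CPM or more. Of them, 3 had a ratio of 2 or more (4.03% over all 5083 genes) and 1 had 0.5 or less (1.26%). Among the higher were Irx3 (2.64) and Meis2 (2.14), both named after their values were seen, and the lower was Pou3f1 (0.499).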

How the data were processed

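RNA of 7 libraries of day 4 embryoid bodies was read from its 3′ end with a Lexogen QuantSeq kit, per the labels' protocols. For each library the authors deposited RSEM expected counts, TPM and FPKM per gene, per the file headers. The build was mm9, per the submitters' processing notes. The sources used here do not give trimming, strand setting or duplicate handling. The deposited expected counts are not normalized and were rounded. The deposited TPM values served in 1 alternative, and no step used the deposited FPKM.

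Names came from the RefSeq gene table of GRCm38, which named 23447 of 24990 features singly. All 7 libraries entered 1 quasi-likelihood fit in edgeR 4.0.16 (R 4.3.3) with a coefficient per group, TMM scaling and filterByExpr, which kept 10265 genes. Adjusted p under 0.05 over all genes was called. With 2 residual degrees of freedom behind the spread, log2 differences use a prior count of 2. SE is the size of the log2 difference divided by the root of F. KD and Ctrl, 1 library each, were compared by ratio with exact binomial intervals, at a 2-fold size rule among genes at 20 CPM or more in either. Named genes were the 6 genes, up to 4 of each list with the highest mean level, and the 3 genes of most similar profile, and others are marked or were added with their lists. Mesp1, Mesp2, Wnt5a, Fgf3, Lefty1, Nodal, Wnt3, Wnt8a, Lefty2, Cdx4, the macrophage list and marker genes given by count or ratio were named after values were seen. Some listed genes are not reported here. The 6 genes and all lists were chosen with earlier results of these data known. The fit was tested on simulated data for pKO against WT. It called 10% of 50 genes given a 2-fold difference, 70% at 4-fold and 100% at 16-fold. Of genes given no difference it called 0.0315%. A 2-fold difference was thus mostly missed in that simulation. Whether the shares called apply to Mixl1, Lhx1, Gsc and Evx1 was not tested. Their SEs for pKO against WT were 0.84, 0.80, 0.53 and 0.54. Alternatives were DESeq2 1.42.0, limma 3.58.1, other scalings and filters, libraries left out, a replicate block and the genotype field.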

Additional observations from a re-analysis of the deposited data

How the results depend on the processing

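No gene was called in any comparison under the main settings. Without the filter on low counts, 9 genes were called between pKO and WT, 6 between pInv and WT and 8 between pInv and pKO, and with the genotype field 7 for pInv against WT. With 1 library left out the counts ran from 0 to 7 for pKO and WT and for pInv and pKO, with 4 and 2 without pKO1 and 7 and 7 without pKO2, and were 0 for pInv and WT. None of the 4 tested homeobox genes was called under any of these settings. The cause of the differing counts was not tested.

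Log2 differences with 1 library left out ran from −0.43 to 3.17 (Mixl1), −0.17 to 1.55 (Gsc) and −0.12 to 1.85 (Evx1) between pKO and WT. Between pInv and WT they ran from −0.25 to 3.37 (Mixl1), −1.05 to 2.13 (Lhx1), −1.04 to 0.71 (Gsc) and −0.12 to 1.86 (Evx1). For pInv against pKO they ran from −0.16 to 0.64 (Mixl1) and −0.12 to 0.15 (Evx1). With the genotype field the signs turned for Mixl1 (−0.31), Lhx1 (−0.95), Gsc (−0.24) and Evx1 (−0.59) between pKO and WT, for Evx1 (−0.20) between pInv and WT, and for Lhx1 (0.81) and Gsc (0.0369) in pInv against pKO. On log2(TPM + 1), Lhx1 was at 0.54 for pInv against WT and Evx1 at −0.0404 for pInv against pKO. Evx1 was at −0.0045 there without the 45S precursor.

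With a replicate block for WT and pKO, 0 genes were called and the log2 differences were 0.95 (Mixl1), 1.84 (Lhx1), 0.54 (Gsc) and 0.78 (Evx1). The numbers give only 2 pairs, and the differences within them correlated at 0.311 across genes, so pairing is not established. No block was fitted for pInv, whose title has no number. The KD to Ctrl ratio of Lhx1 was 2.51 on library totals alone, and the other ratios moved within their counting intervals. The 3 comparisons share libraries. The labels' conflict limits every direction between groups, and the depth limits Cdx1 and Cdx2.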

Other observations

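LIM homeodomain proteins work with the adaptor Ldb1 and with single-stranded DNA-binding proteins that hold that complex together. Of 11 genes of LIM cofactors and LIM-only proteins, 8 were tested and none passed by edgeR's test in the 3 comparisons. Of the 4 most abundant, Ssbp3 was highest in KD, at 115 CPM, and lowest in WT2, as Lhx1 was. Ssbp1 was highest in WT2, at 44.4 CPM against 23.1 in KD. Lmo4 and Rlim were highest in Ctrl, at 102 and 82.7 CPM, with 84.0 and 72.5 in KD. The KD to Ctrl ratio of Ssbp3 was 1.34 (1.10 to 1.64). Ldb1 itself had 1 to 8 counts per library and was not tested. Lmo2, a LIM-only gene of blood and vessel progenitors, had 37 counts in KD and 0 in Ctrl, and was chosen after its values were seen. It was 0 to 7 counts in the remaining libraries.

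In the RefSeq annotation of GRCm38, Evx1 overlaps the antisense RNA gene Evx1os, and Lhx1 has the divergent neighbour Lhx1os. Both were chosen after their values were seen. Evx1os was at 18.7 and 7.20 CPM in WT1 and WT2, at 10.0 and 14.0 in pKO1 and pKO2, at 9.76 in pInv, and at 14.7 and 24.5 in Ctrl and KD. Lhx1os was at 5.62 CPM in WT1, at 4.30 and 4.10 in pKO1 and pKO2, at 2.97 in pInv, and at 2.03 and 15.2 in Ctrl and KD. It had 0 counts in WT2, where the limit of 3 counts is 1.80 CPM. Both were highest in KD and lowest in WT2, as Evx1 and Lhx1 were. KD was highest for 20.1% of tested genes and WT2 lowest for 27.6%. Counts were few, with 12 of Evx1os in WT2 beside 21 in pKO1 and 23 in pInv, and 4 of Lhx1os in Ctrl. The strand setting of the counts is not given, so it is not known whether reads of Evx1 and Evx1os were kept apart where they overlap.

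Profiles over the 7 libraries were compared by the root-mean-square difference of centred log2(CPM + 1), among 4682 genes with means of at least 20 CPM. The nearest to Gsc was Rbm47, an RNA-binding protein gene, at a difference of 0.117. The WT libraries had 55.1 and 14.4 CPM of it, pKO1 and pKO2 36.3 and 52.9, pInv 29.3, and Ctrl and KD 47.2 and 44.8. Crot (0.215) and Pam (0.219) came next. Nearest to Evx1 were Actn1, an actin crosslinker gene (0.156), Gtf2h4 (0.183) and Ube2a (0.225). Nearest to Lhx1 were the protocadherin gene Pcdh7 (0.325), the cadherin gene Cdh2 (0.419) and Ifitm1 (0.421). Nearest to Mixl1 were a feature that merges the ribosomal protein gene Rpl34 with a pseudogene (0.319), the transcription factor gene Srf (0.367) and Picalm (0.376). Srf was at 18.9 CPM in pKO2 and 4.20 in WT2, against 23.4 to 59.1 in the other libraries. Between the homeobox genes the difference ran from 0.476 for Gsc and Evx1 to 0.92 for Mixl1 and Gsc. These are descriptions over 7 libraries that differ in depth.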
